A study of Drosophila melanogaster with 8 samples.

Results

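The RnpS1 knockdown was compared with its own control in ovaries of adult Drosophila melanogaster aged 4 to 6 days. The comparison holds 4 of the 8 RNA libraries of the series, with 2 libraries in each group, and the groups were taken from the sample titles. Knockdown flies carried dsRNA-RnpS1 over tj-GAL4, a driver that expresses the double-stranded RNA in somatic follicle cells, and shRNA-RnpS1 over nos-GAL4-VP16, a driver that expresses the short hairpin RNA in the germline. Control flies carried tj-GAL4 and nos-GAL4-VP16 without either RNA interference transgene. The groups therefore differed in the transgenes as well as in RnpS1. The other 4 libraries are of piwi1/piwi2 mutant ovaries and of a control labelled nos-GAL4-VP16, and they serve here as a second comparison with its own controls. All rows that name a gene and all 123 transposon families of the count tables were used, and 10434 of 15682 genes had enough counts to be tested.

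RnpS1 is a nuclear RNA-binding protein that joins Acinus and SAP18 in the ASAP complex, which acts together with the exon junction complex, the group of proteins that splicing leaves on an mRNA upstream of each junction. In flies the exon junction complex and its partners are known to help the splicing machinery recognise some introns, among them introns of piwi and, for the core complex, of MAP kinase. Piwi is an Argonaute protein that small piRNAs guide to nascent transposon transcripts, where it recruits factors that silence chromatin, in both the germline and the follicle cells that surround it. The series title names the question asked here, whether the exon junction complex restrains transposons through splicing of the piwi transcript. Gene counts give the amount of RNA over a gene's exons and do not show how a transcript was spliced.

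Gene counts summed to between 48470348 and 86692865 in the 4 libraries. Levels are given in CPM, the count scaled to a common total of gene counts, knockdown replicates 1 and 2 first and control replicates 1 and 2 second. Changes are log2 fold changes of the knockdown against its control with a standard error (SE), and a change was called when edgeR's quasi-likelihood test gave a Benjamini-Hochberg adjusted p under 0.05. The first principal component of these 4 libraries held 56.6% of the variance and separated the groups, and the second, with 27.8%, separated replicate 1 from replicate 2 in each group. The make-up of the samples differed within the groups. Summed levels of 13 chorion genes, which follicle cells express at the end of egg formation, were 4429 and 14998 CPM in the knockdown and 10201 and 23146 CPM in the control. Summed levels of 13 gut genes were 105 and 145 CPM against 274 and 0.619 CPM, so that only control replicate 2 was close to free of gut RNA. Summed levels of 9 germline markers stayed between 8261 and 8962 CPM in all 4 libraries, and of 9 follicle cell markers lay at 300 and 703 CPM against 531 and 1117 CPM. The defining genes of both tissues of the ovary were thus present in every library. In whole ovaries, fewer cells of a type and less RNA per cell cannot be told apart.

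RnpS1 transcripts (FBgn0037707, chromosome 3R) were strongly reduced in the knockdown. RnpS1 stood at 8.75 and 3.78 CPM in the knockdown libraries and at 45.0 and 39.6 CPM in the controls. Both knockdown libraries lay far below both controls, at 14.8% of the control mean (6.27 ± 3.51 against 42.3 ± 3.81 CPM, SD, n = 2 each). The log2 fold change of RnpS1 was -2.88 with an SE of 0.367 (adjusted p = 0.0213). The change kept its direction in every alternative run, but the adjusted p rose to 0.121 with the 4 libraries fitted alone, to 0.0995 without control replicate 1, to 0.0708 without control replicate 2, and to 0.0536 and 0.0528 without piwi mutant replicate 1 or 2. Reads of the silencing transgenes against RnpS1 could be counted as RnpS1, so the level of the endogenous transcript may be overstated.

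None of the 7 other measured genes of the ASAP and exon junction complex was called, against 1.54% of all genes. Acn, which encodes Acinus, averaged 263 ± 20.2 CPM in the knockdown and 199 ± 8.26 CPM in the control (SD, n = 2 each), a change of 0.29 on the log2 scale (adjusted p = 0.213, SE 0.103) with groups that did not overlap. The SAP18 gene Bin1 differed by 0.05, and of the core components mago differed by -0.17, tsu, the Y14 gene, by 0.00, CG7483, the eIF4AIII gene, by -0.08 and btz by -0.35 on the log2 scale. Pym, which encodes a factor that takes the complex off mRNA, differed by -0.21. Across the 8 genes 6 changes were negative (4 with library totals alone) and the median was -0.12, beside 0.01 over all genes tested.

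Transcripts of piwi (FBgn0004872, chromosome 2L) were lower in the knockdown as well. The level of piwi was 189 and 156 CPM in the knockdown and 414 and 337 CPM in the control. Both knockdown libraries lay below both controls, with a mean of 45.9% of the control (173 ± 23.2 against 376 ± 54.6 CPM, SD, n = 2 each). The log2 fold change of piwi was -1.24 with an SE of 0.136 (adjusted p = 0.0162), and the adjusted p was 0.0900 without control replicate 1 and 0.117 with the 4 libraries alone. The longest annotated intron of piwi has 1120 bases and that of RnpS1 268 bases in a later annotation release.

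**Figure D1:**
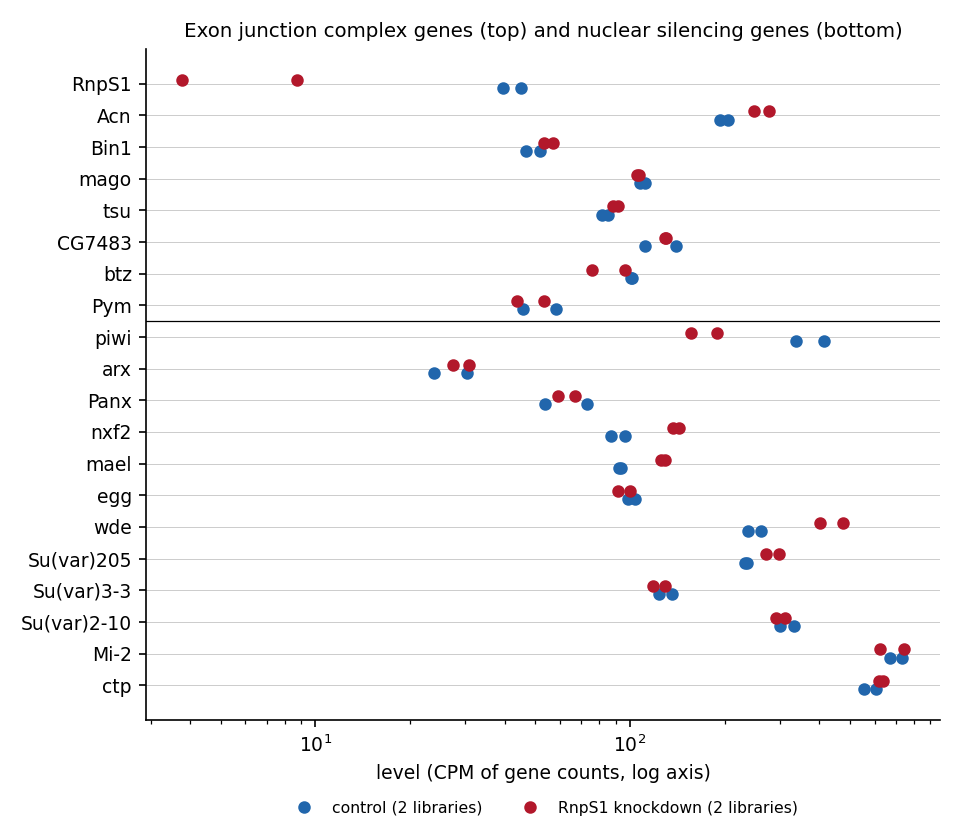
Levels in CPM (log axis) of 8 ASAP and exon junction complex genes (above the line) and 12 nuclear silencing genes (below the line); each point is 1 library, red for the knockdown and blue for the control. RnpS1 and piwi show the widest separation, while wde, nxf2, mael and Acn lie to the right of their controls by smaller amounts.

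Among 12 genes for the nuclear step of transposon silencing, piwi was the only one called. The next in size pointed up. Measured levels of wde, the cofactor of the histone methyltransferase Eggless, were 401 and 475 CPM against 262 and 237 CPM, a change of 0.70 on the log2 scale (adjusted p = 0.0596, SE 0.133). For nxf2, a nuclear export factor paralog that works in the co-repressor complex beneath Piwi, the levels were 138 and 143 CPM against 86.9 and 96.3 CPM (0.50, SE 0.0993, adjusted p = 0.0644). For mael, another gene needed for Piwi-dependent silencing, they were 129 and 125 CPM against 92.5 and 93.6 CPM (0.34, SE 0.0777, adjusted p = 0.0907). The groups did not overlap in any of these 3 genes, as was so for 45.5% of all genes, and all 3 passed under DESeq2, with adjusted p of 1.51e-05, 0.000372 and 0.00546. The partners arx and Panx differed by -0.01 and -0.12, the methyltransferase gene egg by -0.20 and the gene of heterochromatin protein HP1a by 0.17, none of them called.

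No gene for making or amplifying piRNAs was called. Of 13 genes of primary piRNA biogenesis 0 were called by edgeR, 3 were lower at an unadjusted p under 0.05 and 3 were lower under DESeq2, against 7.97% of all genes lower at the unadjusted threshold. The 3 were shu, which encodes a co-chaperone for loading piRNAs (68 and 84.6 CPM against 106 and 111 CPM, log2 fold change -0.62), the Tudor gene vret (84.0 and 64.5 against 102 and 93.3 CPM, -0.51) and the mitochondrial acyltransferase gene mino (216 and 195 against 229 and 222 CPM, -0.25). All 8 measured genes of the ping-pong cycle, in which Aubergine and AGO3 amplify piRNAs in the germline, had negative changes with a median of -0.27 (-0.16 with library totals alone), but 0 were called, 3 were lower at an unadjusted p under 0.05 and 2 under DESeq2. Of 9 genes of the siRNA and microRNA pathways, 9 were negative (8 without control replicate 1), 0 were called, 3 were lower at the unadjusted threshold and 1 under DESeq2. Over all genes tested 48.85% of changes were negative, and the median was -0.14 in the class of genes with the highest control levels. That class was ranked on the control level that each change is measured against, which by itself favours negative changes there. Whether the ping-pong and siRNA lists differed from other genes of similar level was not tested. Of 12 genes for transcribing and exporting piRNA clusters 0 were called, with 2 higher and 2 lower at an unadjusted p under 0.05 and 1 in each direction under DESeq2.

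Transposon RNA made up a larger part of the libraries in the knockdown. Transposon counts per 100 gene counts were 2.40 and 1.57 in the knockdown and 0.644 and 0.676 in the control. Both knockdown libraries lay above both controls, 3.01 times higher on average (1.99 ± 0.591 against 0.660 ± 0.0221, SD, n = 2 each). The smallest p that an exact two-sided permutation of 4 such libraries can give is 0.333. The LTR family that the count tables list by number alone is called DM412 here, its name in Repbase. A single family, the LTR retrotransposon copia, accounted for 50.5% of the increase, and R2-element, a non-LTR retrotransposon that inserts into ribosomal RNA genes, for 16.1%. Taken by library against the control mean, copia made up 58.3% of the increase in knockdown replicate 1 and 35.4% in replicate 2. The R2-element share came from replicate 1, with 23.9% there and 1.09% in replicate 2, where DM412 was next after copia with 11.9%. Without copia and R2-element the share was 0.842 and 1.11 per 100 gene counts in the knockdown and 0.499 and 0.565 in the control, and the order of the knockdown replicates turned around. In the piwi mutant the share was 12.1 and 10.7, and in its control 0.880 and 0.574. Aligned reads with more than 1 position, which are left out of the gene counts, were 65.6% and 50.3% of the alignments tallied in the knockdown and 44.9% and 65.3% in the control, and their part in these values was not tested.

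Of the 123 transposon families 22 rose in the knockdown and 0 fell. This is 17.9% of the families, all 22 higher without overlap between the groups, as 36.6% of the families were. No family was called lower by DESeq2 either, and 1 was lower at an unadjusted p under 0.05, while 32 were higher at that threshold and 23 were called higher by DESeq2. The number of families called was 10 without control replicate 1 and between 15 and 26 without any one of the other 7 libraries.

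LTR retrotransposons, which copy themselves through an RNA that spans both long terminal repeats, led the list. Levels of DM412 were 532 and 1132 CPM in the knockdown and 44.4 and 61.4 CPM in the control. Both knockdown libraries were far above both controls, with a change of 3.87 on the log2 scale (adjusted p = 0.000954, SE 0.390). Levels of copia, the most abundant family in the knockdown, were 10941 and 3986 CPM against 803 and 737 CPM. The knockdown replicates differed from each other by more than the controls did, yet both lay well above them, with a change of 3.15 on the log2 scale (adjusted p = 0.00407, SE 0.445).

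Tirant had the largest fold change and the least even one. Its levels were 16.1 and 183 CPM in the knockdown and 2.30 and 2.93 CPM in the control, a change of 5.15 on the log2 scale (adjusted p = 0.0235, SE 1.13). Knockdown replicate 2 carried most of it, since the change was 2.50 without that library. Its call was lost without control replicate 1 (adjusted p = 0.149) and without control replicate 2 (adjusted p = 0.0891).

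GATE likewise stood higher in knockdown replicate 2, with 197 and 735 CPM against 29.9 and 42.3 CPM and a change of 3.58 on the log2 scale (adjusted p = 0.00807, SE 0.635). For diver the levels were 220 and 302 CPM against 37.9 and 34.5 CPM, a log2 fold change of 2.74 (SE 0.381). For mdg1 they were 406 and 746 CPM against 120 and 56.8 CPM, a log2 fold change of 2.59 (SE 0.427). The groups were apart in all 3 families, by the widest margin in GATE and diver.

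Burdock and Transpac, which are germline families, were higher in knockdown replicate 1 than in replicate 2. Burdock stood at 291 and 126 CPM against 32.6 and 38.6 CPM, a log2 fold change of 2.43. Transpac stood at 117 and 80.5 CPM against 12.2 and 24.9 CPM, a log2 fold change of 2.30. Smaller and even rises were seen for accord (44.5 and 56.4 against 11.3 and 10.1 CPM, log2 fold change 2.12) and HMS-Beagle2 (196 and 215 against 59.0 and 53.6 CPM, 1.75, SE 0.131, adjusted p = 0.00039). The remaining LTR families that rose were Quasimodo, Max-element, mdg3, gypsy12, Idefix, Dm88 and gtwin, with log2 fold changes from 1.10 for gtwin to 1.97 for Quasimodo.

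**Figure D2:**
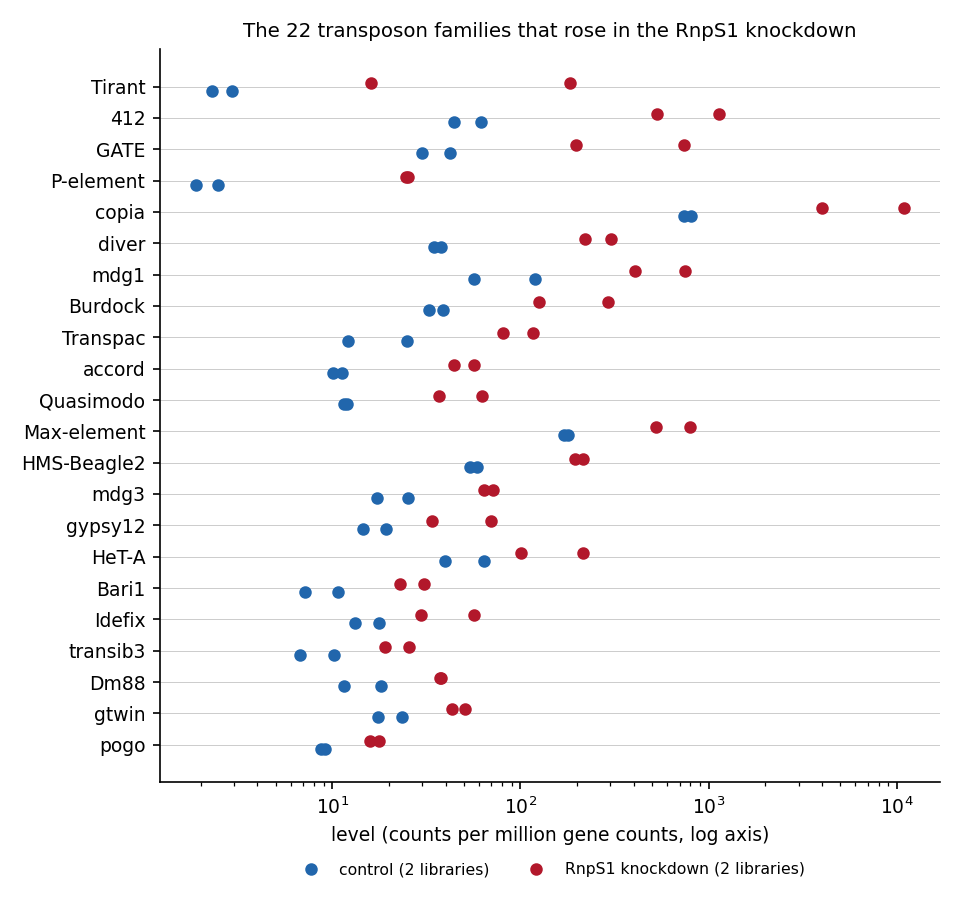
Levels of the 22 families that rose, in CPM (log axis), ordered by fold change; each point is 1 library, red for the knockdown and blue for the control. No family has overlapping groups, and Tirant, GATE and copia show the widest gap between the knockdown replicates.

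By class, 17 of 60 LTR families rose (28.3%), 4 of 22 DNA transposon families and 1 of 38 non-LTR families. The non-LTR family was HeT-A, which builds the telomeres of flies, with 100 and 214 CPM against 39.6 and 64.3 CPM and a change of 1.49 on the log2 scale (adjusted p = 0.0396, SE 0.393). Among the DNA transposons P-element stood at 24.6 and 25.2 CPM against 2.46 and 1.88 CPM, a change of 3.40 on the log2 scale (adjusted p = 0.000596, SE 0.301) with almost no spread within the knockdown. P-element ends are part of many fly transgene vectors, and the knockdown carries transgenes that the control lacks. Transcripts of such vectors and of P-element copies cannot be told apart in these counts. The other DNA families were Bari1, transib3 and pogo, with log2 fold changes of 1.46, 1.29 and 0.80.

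The families that rose included families listed as active in each tissue of the ovary. Of 14 families listed as active in follicle cells 5 rose, namely DM412, mdg1, Quasimodo, Idefix and gtwin, a count to set beside the 17.9% called over all families. The median change over the 14 was 0.58, but 0.21 without knockdown replicate 2 and 0.87 without knockdown replicate 1. Of 24 families listed as active in the germline 8 rose, namely copia, P-element, diver, Burdock, Transpac, Max-element, mdg3 and HeT-A, with a median of 0.69, beside 0.19 over all 123 families. Several families that are widely used to report lost silencing did not pass. Of the follicle-cell list, ZAM stood at 58.8 and 63.5 CPM against 71.9 and 49.0 CPM in whole ovaries (log2 fold change -0.10). From the same list gypsy stood at 291 and 450 CPM against 300 and 509 CPM (-0.24). Of the germline list, blood (0.06), Doc (0.08), I-element (0.03) and roo (-0.11) also had small changes, each with groups that overlapped.

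Large values outside the calls came from uneven replicates. R2-element stood at 4677 and 609 CPM against 652 and 369 CPM, so that only knockdown replicate 1 was high and the groups overlapped (log2 fold change 2.25, SE 0.835, adjusted p = 0.124). R1A1-element, which also inserts into ribosomal RNA genes, was likewise high mainly in knockdown replicate 1, with 664 and 142 CPM against 87.9 and 114 CPM. Its groups did not overlap (1.87, SE 0.648, adjusted p = 0.106). Both families passed under DESeq2, with adjusted p of 0.0496 for R2-element and 0.0059 for R1A1-element. The libraries were depleted of ribosomal RNA, whose part in these values was not tested.

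All 22 families that rose in the knockdown also rose in the piwi mutant, where 75 of 123 families did (61.0%), so the overlap is 100% of the knockdown list and 29.3% of the mutant list. The change differed between the knockdown and the mutant for 47 families (38.2%), of which 46 changed less in the knockdown. Among the 22 families, 13 changed less in the knockdown by this test. For copia the log2 fold change was 3.15 in the knockdown and 6.88 in the mutant, a difference of -3.72 (SE 0.598, adjusted p = 0.00252), and for Burdock it was 2.43 and 6.07, a difference of -3.64 (SE 0.588, adjusted p = 0.00252). The other 9 families showed no difference past the threshold. For DM412 the changes were 3.87 and 3.08 (difference 0.79, SE 0.493, adjusted p = 0.242), and for P-element they were 3.40 and 3.08 (difference 0.32, SE 0.390, adjusted p = 0.512). Transcripts of transgene vectors and of P-element copies cannot be told apart in either comparison. The controls of the experiments were not alike: the RnpS1 control had less DM412 and more copia (770 against 239 CPM on average) than the piwi control, both past the threshold.

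**Figure D3:**
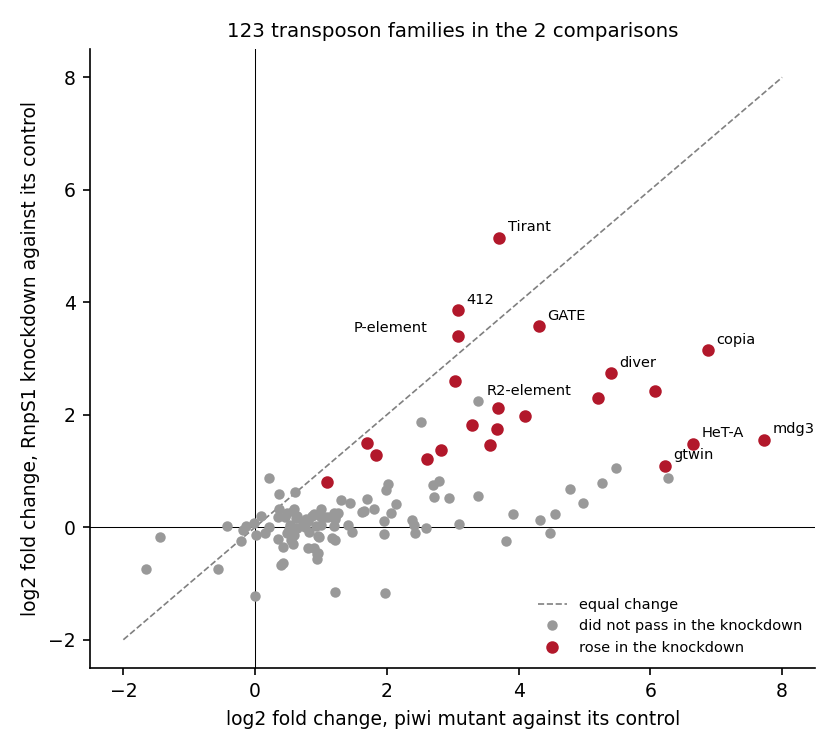
Log2 fold change of 123 families in the piwi mutant (x axis) and in the RnpS1 knockdown (y axis), each against its own control; red points rose in the knockdown, and the dashed line marks equal change. Most red points lie below the line, and Tirant, DM412 (marked by its number) and P-element lie above it without a difference past the threshold.

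At the level of genes, 90 rose and 71 fell in the knockdown, which is 0.863% and 0.680% of the 10434 tested. At an unadjusted p under 0.05, 1058 were higher and 832 lower (10.1% and 7.97%), the shares to set beside the unadjusted counts of each list. The groups did not overlap for any of the 161 genes called. The genes that rose were mostly scarce in the control, with a median control level of 1.39 CPM and a median log2 fold change of 3.47. The genes that fell were abundant, with a median control level of 104 CPM and a median log2 fold change of -0.96. Of the genes that rose, 82 did so by at least 2-fold, and of those that fell, 31. Over all genes tested the median control level was 28.7 CPM. The control level enters the change itself, which favours rises at low control levels and falls at high ones.

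These counts rested on single libraries. Without control replicate 1 no gene passed in either direction, without control replicate 2 the counts were 7 higher and 14 lower, and without knockdown replicate 1 they were 22 and 12. They were 20 and 8 without piwi mutant replicate 1 and also without piwi mutant replicate 2, which enter only through the shared estimate of the spread. They were 52 and 39 without piwi control replicate 1 and 52 and 35 without piwi control replicate 2. With the 4 libraries alone 5 rose and 0 fell, while DESeq2 called 513 and 488 of the 10434 genes. The DESeq2 counts of each list are to be set beside these totals. All 161 genes kept their direction in every one of these fits. They were called from these same libraries and their groups did not overlap, so this could hardly come out otherwise. Relative to library totals alone, TMM scaling moved the median change of all genes from 0.12 to 0.01, and with library totals 121 genes rose and 45 fell, so 72.9% of calls were higher in place of 55.9%.

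**Figure D4:**
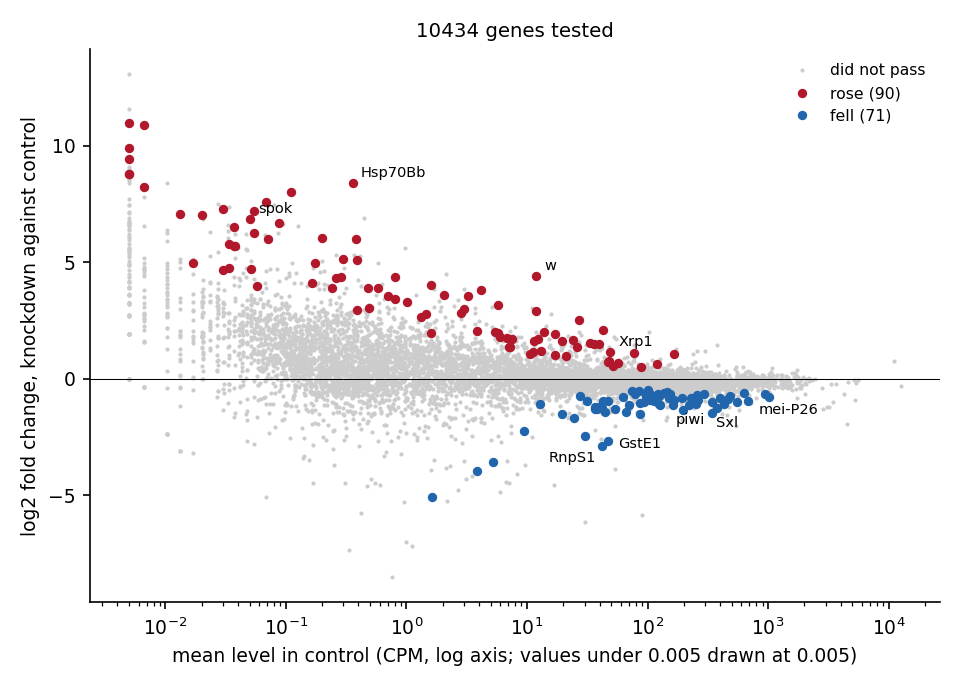
Mean control level in CPM (log axis) against log2 fold change for the 10434 genes tested; red points are the 90 genes that rose and blue points the 71 that fell. Rises lie mostly at control levels under 10 CPM and falls mostly above it.

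The largest rises were of genes with almost no counts in the control. Hsp70Bb, a copy of the heat-inducible chaperone gene, stood at 133 and 152 CPM against 0.572 and 0.144 CPM, a change of 8.40 on the log2 scale (adjusted p = 0.0216, SE 1.09). None of the other Hsp70 copies tested was called. In the piwi control Hsp70Bb averaged 61.4 CPM. The copies are nearly identical, so their counts are uncertain, and Hsp70 sequences are part of common transgene vectors. Of 16 heat shock genes tested, 1 rose and 1 fell, the latter being Hsp26, which encodes a small heat shock protein (580 and 691 against 1044 and 999 CPM, log2 fold change -0.80).

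The eye pigment transporter gene w, which is the usual marker of fly transgenes, showed the same kind of pattern. Its levels were 208 and 338 CPM in the knockdown and 11.1 and 12.8 CPM in the control, a change of 4.41 on the log2 scale (adjusted p = 0.00636, SE 0.337). In the piwi mutant w averaged 5.56 CPM and in its control 283 CPM. Marker transgenes and the endogenous gene cannot be told apart. The other transgene markers y and v stood at 6.23 and 6.48 against 1.62 and 1.28 CPM and at 4.30 and 4.56 against 0.825 and 1.53 CPM, without overlap and without a call.

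Several strong rises were of genes with known roles outside the ovary. Dhc98D, a dynein heavy chain gene, stood at 23.1 and 30.1 CPM against 0.439 and 0.330 CPM, a change of 5.98 on the log2 scale (adjusted p = 0.00466, SE 0.404). Cep164, a gene for a centriole protein, stood at 27.0 and 29.1 CPM against 1.36 and 1.84 CPM (4.02, SE 0.276, adjusted p = 0.00466). In both genes the knockdown libraries were close to each other and far above the controls. In the piwi control they averaged 6.71 and 8.22 CPM, above the RnpS1 control, and the difference between the controls was past the threshold for both.

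The sterol-uptake gene of the gut, Npc1b, stood at 2.64 and 4.44 CPM against 0.0399 and 0 CPM, 148 times higher by counts (95% interval 50.5 to 721). The sum of the gut marker list moved with no group, since the 2 controls lay on both sides of the knockdown. The 11 members tested split into 5 positive and 6 negative changes, from -4.55 to 5.59. The tissue behind the Npc1b counts was not tested. The protease gene Ser8 was absent from the control counts and stood at 1.90 and 6.94 CPM in the knockdown, at least 189-fold higher (3 counts over the group). By the same reckoning CG14669 was at least 84.4-fold and CG31463 at least 63.6-fold higher, while CG11911 with 1 control count was 2612 times (469 to 103200) and CG33306 392 times (70.0 to 15494) higher. These bounds and intervals cover counting error only.

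In the ecdysone list, 1 of 11 genes rose, beside 0.863% of all genes. It was spok, which encodes a cytochrome P450 for the making of the steroid hormone, with 9.15 and 4.87 CPM against 0.0799 and 0.0206 CPM and a change of 6.86 on the log2 scale (adjusted p = 0.0358, SE 1.07). Of the 11 changes 8 were negative (5 without knockdown replicate 1, 6 with library totals alone). The nuclear receptor gene ftz-f1 stood at 310 and 322 CPM against 379 and 374 CPM (-0.37, adjusted p = 0.112), was lower at an unadjusted p under 0.05 and passed under DESeq2. The receptor partner gene usp differed by -0.07. CG14480 had the smallest p of all genes, with 204 and 186 CPM against 41.6 and 43.8 CPM (2.08, SE 0.115, adjusted p = 0.00425). For l(2)41Ab the levels were 65.0 and 60.2 CPM against 3.78 and 4.48 CPM, a log2 fold change of 3.81 (SE 0.246). Other rises past 2-fold included the septate junction gene cora (137 and 103 against 37.5 and 41.9 CPM, 1.48), the receptor gene moody of the blood-brain barrier (21.4 and 25.3 against 5.45 and 5.43 CPM, 1.99), the phosphodiesterase gene Pde6 (28.3 and 52.4 against 2.56 and 3.92 CPM, 3.53) and the myosin gene Myo28B1 (22.2 and 31.1 against 2.56 and 1.51 CPM, 3.60). These 4 were chosen after their values were seen.

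Of 12 genes tested for apoptosis and the p53 response, 1 rose, beside 0.863% of all genes. It was Xrp1, a transcription factor that p53 and ribosomal stress induce, with 121 and 112 CPM against 45.9 and 51.7 CPM. The knockdown libraries lay well above both controls, a change of 1.14 on the log2 scale (adjusted p = 0.0263, SE 0.154). The pro-apoptotic genes hid (12.3 and 8.37 against 5.33 and 3.42 CPM, 1.12) and rpr (1.32 and 0.484 against 0.320 and 0.248 CPM, 1.53) were not called, with groups that did not overlap. Of 38 ribosomal protein genes 19 changes were positive and 19 negative (31 and 7 with library totals alone), 0 were called by edgeR, and 1 was lower both at an unadjusted p under 0.05 and by DESeq2.

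Among the genes that fell, RnpS1 itself was among the largest changes. GstE1, a glutathione transferase gene of the detoxification list, stood at 10.3 and 5.48 CPM against 53 and 40.7 CPM (log2 fold change -2.69, SE 0.302, adjusted p = 0.0162). It was the one gene called of 18 in that list, beside 0.680% of all genes that fell. Positive changes were seen in 16 of the 18 (13 without knockdown replicate 1, 15 without any one of the other 3 libraries of the comparison). Over all genes tested 48.85% of changes were negative. At an unadjusted p under 0.05, 4 of the 18 were higher, beside 10.1% of all genes. GstE1 was also low in the piwi mutant, with an average of 6.50 CPM. The zinc-finger gene Cph stood at 4.88 and 6.97 CPM against 28.3 and 31.9 CPM (-2.46, SE 0.320). Larger falls were of the scarce genes CG31683 (-5.10), CG12061 (-3.96) and CG9961 (-3.59), and the P450 gene Cyp6a17 fell by 2.23 on the log2 scale. For CG31683 and CG12061 the piwi control averaged 0.117 and 0.365 CPM, nearer the knockdown than the RnpS1 control, at 2.0 and 1.28 and at 4.05 and 3.61 CPM. The piwi control also lay nearer the knockdown for Cph and CG9961, with averages of 10.4 and 1.15 CPM. The difference between the controls was past the threshold for CG31683 and CG12061 but not for Cph and CG9961. For GstE1 and Cyp6a17 the piwi control lay nearer the RnpS1 control.

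Single genes with roles in the germline were among the moderate falls. Of 9 germline markers 0 were called, and 0.680% of all genes fell. Sxl, the RNA-binding switch gene of female identity, stood at 237 and 198 CPM against 512 and 347 CPM (-1.10, SE 0.184, adjusted p = 0.0456), the one gene called of 12 splicing regulators. The translational regulator gene mei-P26, which limits germline proliferation, stood at 360 and 400 CPM against 657 and 718 CPM (-0.97, SE 0.108, adjusted p = 0.0162), the one called of 12 early germline genes. In both genes each knockdown library lay below each control.

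The meiotic helicase gene rec stood at 18.9 and 17.0 CPM against 32.6 and 31.0 CPM (-0.94, SE 0.121, adjusted p = 0.0213), the one called of 10 meiosis genes. The synaptonemal complex gene c(3)G pointed the other way with 84.9 and 83.9 CPM against 32.2 and 39.3 CPM (1.12, adjusted p = 0.0541), and so did ord, a cohesion gene (14.9 and 3.14 against 0.426 and 0.186 CPM, 4.73, adjusted p = 0.0541). Neither was called. The kinesin gene nod, also without a call, stood at 125 and 134 CPM against 186 and 165 CPM (-0.55, adjusted p = 0.0911). All 3 passed under DESeq2. Of 17 DNA repair genes only tefu, the fly ATM kinase gene, fell, with 97.3 and 90.6 CPM against 180 and 152 CPM (-0.94, SE 0.115, adjusted p = 0.0196). The single calls in these 2 lists stand beside 0.680% of all genes that fell.

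Cell cycle genes had small negative changes. All 24 tested were negative, with a median of -0.33 (-0.17 without control replicate 1, -0.21 with library totals alone), although 3 turned positive with library totals alone and 5 without control replicate 1. Of the 24, 10 were lower at an unadjusted p under 0.05, beside 7.97% of all genes, and 2 were called. These were Cdk4, the partner of cyclin D (73.1 and 69.3 against 102 and 109 CPM, -0.69, adjusted p = 0.0425), and Cdk2, the partner of cyclin E (82.9 and 85.3 against 135 and 111 CPM, -0.66, adjusted p = 0.0428). The share called, 2 of 24, stands beside 0.680% of all genes. Summed levels of the 24 genes were 9759 and 8982 CPM in the knockdown and 11270 and 9506 CPM in the control. Changes of genes of the oocyte axes and germ plasm were also negative in 15 of 15, but in 11 of 15 with library totals alone, with a smaller median of -0.17 and 0 called, 2 being lower at an unadjusted p under 0.05 and 2 under DESeq2. For example osk stood at 2244 and 2150 CPM against 2139 and 2256 CPM. Over all genes tested 48.85% of changes were negative. The median change moved with control level, from 1.085 in the class of genes with the lowest levels to -0.14 in the class with the highest. These classes were ranked on the control level that each change is measured against, so part of this trend was fixed in advance. Whether the cell cycle and oocyte lists differed from other genes of similar level was not tested.

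Late follicle cell products varied widely between the replicates of each group. All 13 chorion genes had negative changes (12 with library totals alone, 11 without knockdown replicate 1 or without control replicate 2), with a median of -0.90 that ran from -2.12 without knockdown replicate 2 and -1.43 without control replicate 1 to -0.34 without knockdown replicate 1 and -0.19 without control replicate 2, yet 0 were called by edgeR or DESeq2 and 0 passed at an unadjusted p under 0.05. For dec, the chorion gene with the highest level, the values were 1144 and 4985 CPM against 2983 and 7624 CPM, so that replicate 1 was low in both groups. Of 13 vitelline membrane genes and 4 yolk genes 0 were called, with medians of -0.84 and -0.97. The vitelline median was -0.12 without knockdown replicate 1, -0.13 without control replicate 2, -1.42 without control replicate 1 and -2.62 without knockdown replicate 2. The yolk median was -0.37 without knockdown replicate 1 and -2.40 without knockdown replicate 2. At an unadjusted p under 0.05, 2 vitelline genes and 0 yolk genes were lower, and under DESeq2 1 and 0. The 13 follicle cell and niche genes had a median of 0.04 (-0.26 without knockdown replicate 2, -0.21 without control replicate 1, 0.38 without knockdown replicate 1 and 0.43 without control replicate 2) and 0 called. At an unadjusted p under 0.05, 1 was higher and 1 lower. The adhesion gene Fas3 stood at 123 and 70.7 CPM against 38.4 and 37.0 CPM (1.24, adjusted p = 0.101) and passed under DESeq2, as did the receptor gene N in the other direction, at 228 and 286 CPM against 311 and 329 CPM (-0.43, adjusted p = 0.178).

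Genes for mRNA surveillance, in which the exon junction complex takes part in many animals, were not called. None of 6 nonsense-mediated decay factors and none of 4 reported targets passed by edgeR, at an unadjusted p under 0.05 or under DESeq2, with medians of -0.15 and -0.21. The target median turned to 0.06 without knockdown replicate 2 and to 0.23 without control replicate 1, and was -0.37 without the other control library, and the factor median ran from -0.30 without knockdown replicate 2 to -0.06 without knockdown replicate 1 and was -0.04 with library totals alone. The target genes Arc1 (197 and 87.9 against 222 and 110 CPM) and Oda (691 and 587 against 603 and 501 CPM) overlapped between groups. Of 13 genes of the EGFR and MAP kinase pathway 0 were called by edgeR and 1 by DESeq2, and 1 was higher and 1 lower at an unadjusted p under 0.05. The gene lower in both was rl, the MAP kinase gene, at 128 and 79.3 CPM against 208 and 133 CPM (-0.84, SE 0.282, adjusted p = 0.193).

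Most of the listed genes of pericentric heterochromatin, where rl lies, had negative changes. Of 19 tested, 15 were negative (14 to 16 without any one of the 4 libraries), the median was -0.45 and 10 were lower at an unadjusted p under 0.05 (beside 7.97% of all genes), 9 were lower under DESeq2, and 1 was called by edgeR. This was Gprk1, a kinase gene for G protein-coupled receptors, with 72.3 and 54.7 CPM against 141 and 107 CPM (-1.08, SE 0.178, adjusted p = 0.0440). Further members with groups apart were Dbp80 (87.3 and 48.4 against 158 and 132 CPM, -1.22, adjusted p = 0.0681), lt (97.9 and 64.4 against 159 and 107 CPM, -0.83) and Nipped-A (295 and 321 against 475 and 419 CPM, -0.65, adjusted p = 0.0622). The ribosomal protein genes RpL5, RpL15 and RpL38, which lie in the same chromatin, were at 0.03, -0.17 and 0.49. The largest change in size in the list was a rise of 1.83, and 1 member was higher at an unadjusted p under 0.05. On the small, heterochromatin-rich chromosome 4, 5 of 83 genes fell (6.02%, beside 0.680% of all genes) and 0 rose. They were unc-13 (151 and 116 against 416 and 270 CPM, -1.48), PMCA, PlexB, Taf3 and CG31998. The median control level on chromosome 4 was 59.5 CPM, beside 28.7 CPM over all genes tested. The median longest intron was 2328 bases there, beside 236 bases over all genes with intron annotation. The part of level and intron length in the share that fell was not tested.

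Shares of genes called differed by the length of the longest intron, in both directions for the longest class. The share that fell was 0.402% of genes without an intron, 0.367% where the longest intron had 1 to 250 bases, 0.793% up to 1000, 0.95% up to 5000, 1.41% up to 20000 and 1.29% over 20000 bases. The share that rose was 0.723% without an intron, 0.839% up to 250 bases, 0.963% up to 1000, 0.534% up to 5000, 0.658% up to 20000 and 1.80% over 20000 bases, where 7 rose and 5 fell. The median longest intron was 1120 bases in genes that fell, 189 in genes that rose and 236 over all 9963 genes with intron annotation. Level moves with this measure: the median control level was 3.73 CPM in genes without an intron and between 20.4 and 48.9 CPM in the other classes. Of the 71 falls, 29 came from the 20% of genes with the highest control level and 0 from the lowest 20%. The lowest 20% had a median control level of 0.142 CPM, from which a fall could hardly be called, so that 0 was nearly fixed in advance. Among genes with a mean of 10 CPM or more over all 8 libraries, an alternative chosen after seeing the data, the share that fell was 0.921% without an intron, 0.468% at 1 to 250 bases, 1.45% above 1000 and up to 5000 bases, 2.13% up to 20000 bases and 2.18% over 20000 bases. The last class holds 5 falls and 5 rises. Genes are not independent replicates, so these shares are a description, with no test.

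**Figure D5:**
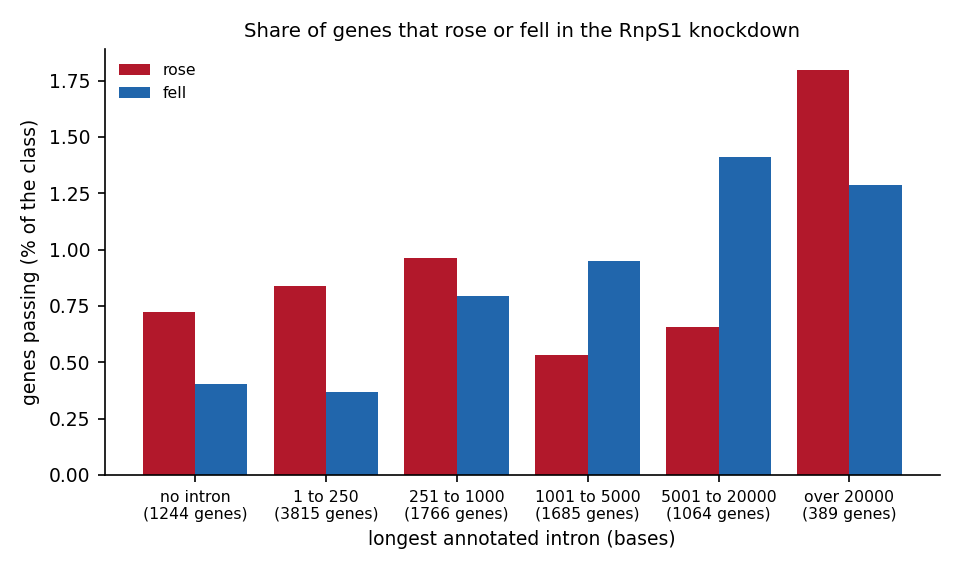
Percentage of the genes in each class of longest intron (x axis, bases, with the number of genes tested) that rose (red) or fell (blue) in the knockdown. Falls lie at 0.402% or less without an intron and up to 250 bases and reach 1.41% above 5000 and up to 20000 bases, while rises show no steady order.

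Genes called in both comparisons were few. Of the 90 genes that rose in the knockdown 25 also rose in the piwi mutant, which is 27.8% of the knockdown list and 3.86% of the 648 that rose in the mutant (6.21% of all genes). Of the 71 that fell, 14 also fell in the mutant (4.78% of all genes fell there), 19.7% of the knockdown list and 2.81% of the mutant list. A further 11 genes were called in opposite directions. The change itself differed between knockdown and mutant for 67 genes (0.642%), 29 of them higher in the knockdown, and this count was between 9 and 40 when any one of the 8 libraries was left out. The controls differed from each other for 371 genes (3.56%), among them 22 of the 90 genes that rose and 11 of the 71 that fell. Of the 90 genes, 84 also lay above both piwi control libraries, and 63 of the 71 lay below both. The genes were called on these same knockdown values, so this is no separate support. The share over all genes was not counted.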

How the data were processed

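Raw read counts per gene and per transposon family were deposited by the authors, 1 table of each kind per library, neither normalized nor pooled. Per the submitters' processing notes CASAVA, TopHat2 2.0.9 and HTSeq 0.5.3p9 were used with dm3 and BDGP5. Which aligner lay behind the family counts is unknown, and the strand setting of the counting was not established. How well overlapping genes on opposite strands were told apart is therefore uncertain. Per the labels' protocols, total RNA was depleted of ribosomal RNA and made into strand-specific libraries. The 5 closing rows of each gene table name no gene and stayed out; reads outside genes were 1.91% to 3.29% and ambiguous reads 1.19% to 1.25% in the 4 libraries. Of 15682 identifiers 15002 have a symbol in a later release (BDGP6), which also gave chromosomes and introns; list members without a match have no value here.

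Genes and families were fitted together with edgeR 4.0.16 (R 4.3.3), quasi-likelihood, over the 8 libraries with 1 term for each group, so that the groups share 1 estimate of spread; families were adjusted separately. Genes passed filterByExpr, families a total of 10 counts. TMM factors and library sizes came from gene counts; printed CPM are scaled to gene counts without these factors. DESeq2 1.42.0 was an alternative. Genes were named by rule: RnpS1 and piwi, the largest changes and smallest p among calls, up to 4 called members per list or its most abundant members, and the largest differences from the mutant. The members and lists were chosen with earlier results of these data known. The labels do not say that libraries came from separate animals, so the p-values reflect the spread between libraries alone, which may be technical; no 2 held identical counts.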

Additional observations from a re-analysis of the deposited data

Results flagged for a closer look

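The results here had a change that differed between the RnpS1 knockdown and the piwi mutant by the test of the difference itself (edgeR's quasi-likelihood test, adjusted p under 0.05), and are the largest such differences in each direction, given as the log2 fold change in the knockdown less that in the mutant. They include the one family with the larger value in the knockdown. Each comparison used its own control.

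Higher in the knockdown by this difference were w (10.2), Hsp70Bb (9.95), Dhc98D (9.26), CG17470 (8.80), narya (6.65) and CR43361 (5.59). In all but CG17470 the controls also differed from each other past the threshold. For w the controls averaged 11.9 CPM in the RnpS1 experiment and 283 CPM in the piwi experiment, and for narya the piwi control averaged 30.6 CPM against 0.346 and 0.289 CPM in the RnpS1 controls. CG17470 stood at 8.92 and 9.77 CPM in the knockdown, 0.346 and 0.825 CPM in its control, and averaged 0.0312 CPM in the mutant and 0.893 CPM in its control.

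Higher in the mutant were Gr98b (-16.5), CG4021 (-15.1), CG9400 (-12.1), hbt (-9.73), Ada1-1 (-9.23) and CG42326 (-9.12). Gr98b, CG4021, CG9400 and Ada1-1 had 0 counts in the piwi control, so their fitted differences depend on the handling of zeros and are no bound. For CG9400, Ada1-1 and hbt the controls differed past the threshold. None of the 6 was called in the knockdown.

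Among families, hopper differed by 1.27, with levels of 18.1 and 20.6 CPM in the knockdown, 22.9 and 17.5 CPM in its control, and means of 60.6 CPM in the mutant and 148 CPM in the piwi control. The families with the largest differences towards the mutant were mdg3 (-6.18), gypsy5 (-5.40), HeT-A (-5.16), gtwin (-5.12), ZAM (-4.58) and HMS-Beagle (-4.54). The levels of mdg3 were 71 and 64.3 CPM in the knockdown and averaged 12979 CPM in the mutant.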

How the results depend on the processing

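With 2 libraries per group, 4 residual degrees of freedom are left with the piwi libraries in the fit. Depth and this number of libraries limit what can be called among scarce genes and among genes with uneven replicates. The 161 genes and 22 families called kept their direction in every alternative run, and 10 families (DM412, HMS-Beagle2, Max-element, P-element, Quasimodo, Transpac, accord, copia, diver and mdg1) passed in all 16. The direction was nearly fixed, since these genes and families were called from the same libraries and their groups did not overlap. How many genes passed depended on the fit, and the cause was not tested.

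Genes that rose and fell numbered 90 and 71, against 5 and 0 with the 4 libraries alone, 513 and 488 with DESeq2, and 0 to 66 and 0 to 53 with 1 library left out. Genes that fell numbered 45 with library totals alone. Genes whose change differed from the mutant numbered 67, against 789 with DESeq2, 112 with low counts kept and 9 to 40 with 1 library left out. With scaling factors from the families themselves 14 families rose and 21 differed from the mutant, and with 1 library left out 10 to 26 rose and 33 to 70 differed. The log2 fold change of RnpS1 was -2.87 with the 4 libraries alone and -3.59 to -2.40 with 1 library left out, and that of piwi -1.24 and -1.38 to -1.10. Families fitted alone, an alternative chosen after seeing the data, gave 22 that rose.

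The replicate numbers are only shared numbers, since nothing in the labels ties them to a day or animal. Deviations from group means of same-numbered knockdown and control libraries correlated at 0.207 across genes. With the replicate block 35 genes rose and 29 fell, 44 differed from the mutant, and 23 families rose.

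The sign of these uncalled log2 fold changes near 0 or with uneven replicates changed. With library totals alone they became csw 0.0762, usp 0.0450, Stat92E 0.0105, Oamb 0.0484, CG9400 0.0847, CG7483 0.0396, armi 0.0390, Ada1-1 0.0130 and Trf2 0.0466. With low counts kept they became GstD1 -0.0201, ctp -0.0231 and Diap1 -0.0010, with DESeq2 ctp -0.0013, with RLE factors ctp -0.0013, and with the replicate block CG9400 0.0179. With 1 library left out the ranges were csw -0.19 to 0.12, GstD1 -0.0742 to 0.0734, RpS27A -0.0654 to 0.20, usp -0.17 to 0.0171, bt -0.37 to 1.99, ctp -0.0748 to 0.0658, Oda -0.0384 to 0.22, vkg -2.16 to 0.31, lok -0.18 to 0.24, RpL3 -0.11 to 0.22, Oamb -0.59 to 0.74, CG9400 -0.35 to 0.35, Arc1 -1.02 to 0.24, BomS1 -0.11 to 4.85, CG7483 -0.24 to 0.0906, topi -1.28 to 0.54, Octbeta2R -1.02 to 0.43, Cad99C -1.64 to 0.37, dome -0.44 to 0.0059, Ada1-1 -0.38 to 0.14, RpL5 -0.21 to 0.23, apolpp -0.73 to 0.19, Jon65Aiv -2.49 to 8.49, brp -1.33 to 0.38, Diap1 -0.13 to 0.17, Trf2 -0.26 to 0.10 and LanB1 -0.38 to 0.58.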

Other observations

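Transcripts of the mitochondrial genome summed to 31335 and 14624 CPM in the knockdown and 17860 and 8386 CPM in the control, higher in replicate 1 of each group. Of 15 such transcripts 0 were called by edgeR, 2 were higher at an unadjusted p under 0.05 and 2 by DESeq2. Most of the sum was mt:lrRNA, at 27832 and 12467 CPM against 15185 and 6983 CPM.

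Of 15 immune effector genes tested, 12 had positive changes (3 without knockdown replicate 1, where the median of 0.86 became -0.77) and 0 were called, with 1 higher at an unadjusted p under 0.05 and 1 by DESeq2. BomS1 stood at 9.92 and 0.311 CPM against 0.160 and 0.475 CPM, high in knockdown replicate 1 only. Of 7 JAK/STAT genes 0 were called by edgeR or DESeq2, and 1 was higher at an unadjusted p under 0.05.

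Markers of other cell types were called in no list. Muscle sheath markers summed to 747 and 1464 CPM against 608 and 1475 CPM, fat body markers to 127 and 107 against 84.9 and 147 CPM, haemocyte and basement membrane markers to 178 and 553 against 261 and 535 CPM, testis markers to 6.42 and 7.51 against 2.17 and 4.50 CPM, neuron markers to 7.87 and 7.92 against 3.24 and 5.57 CPM, and oviduct and spermatheca markers to 34.0 and 27.5 against 47.2 and 18.1 CPM. The testis and neuron sums were higher in both knockdown libraries than in both controls.

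Of genes next to each other on a chromosome in the later annotation, 2 pairs rose together (Gr21a with CG3544 and CG12782 with CG13540), 1 pair fell together (CG42240 with CG3842) and 4 pairs were called in opposite directions. One of the 4 was l(2)41Ab at 3.81 beside BckdhB at -0.73, and another was CG17470 at 3.89 beside phr6-4, a photolyase gene, at -1.13.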
